A study of Homo sapiens with 2 samples.

Results

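The genes described here are 10 members of the BCL2 family of survival and death genes. On the array, 19775 genes had a probe set of their own, among them all of the 10 except BBC3. They are the prosurvival genes BCL2, BCL2L1, MCL1 and BCL2A1, the effector genes BAX and BAK1, and the BH3-only genes BID, BCL2L11, PMAIP1 and BBC3. The members were taken by name, as all probe sets that the platform's annotation assigns to them, which gave 31 probe sets of 54613 other than controls. Of these, 30 listed 1 gene each. The remaining probe set listed BBC3 together with 2 microRNA genes, so its values are those of a shared probe set and BBC3 was not counted as measured.

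Proteins of this family set the threshold for death by the mitochondrial route of apoptosis. BAX and BAK1 can open pores in the outer mitochondrial membrane and let cytochrome c out, the prosurvival proteins hold them in check, and the BH3-only proteins bind the prosurvival proteins or the effectors and tip the balance towards pore opening. In breast cancer the family is known as a determinant of the response to chemotherapy, and compounds that mimic BH3-only proteins were built to block its prosurvival members.

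The samples were MDA-MB 231 cells, a human breast cancer line that is estrogen receptor-negative and highly invasive, stably transfected with S100A7 in the plasmid pIRES2-EGFP or with pIRES2-EGFP alone, with 1 GeneChip array for each. S100A7 (psoriasin) is a small secreted calcium-binding protein, and the study asked which genes it regulates. The plasmid also encodes the fluorescent protein EGFP, so both lines share it. The labels do not say whether a stable line was 1 clone or a pool, and they give the confluence at harvest only for vector cells. Without replicates, no difference below has a test or a p-value, and how much cultures or independent stable lines vary is unknown.

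Values are MAS5 intensities on a linear scale. Each array's 50th percentile, 69.0 on the S100A7 array and 71.0 on the vector array, served as a floor: a probe set counts as measured if 1 or both of its values lie at or above it, and smaller values were set to it. A gene's value is that of its brightest measured probe set, and log2 ratios are S100A7 cells over vector cells. Log2 ratios of different probe sets of the same gene had a pooled standard deviation (SD) of 0.36 over 6465 genes, a spread within this pair of arrays. S100A7 itself read 13232 in S100A7 cells and 11.99 in vector cells, where it was below the floor, so it was at least 186-fold higher. Markers of the line, VIM, CD44, EGFR, CAV1 and SPARC, exceeded the floor in both lines. SPARC did so only narrowly, at 114 in S100A7 cells and 72.7 in vector cells, with 1 of its 2 probe sets measured. Of 5 markers the line should lack, 3 (ESR1, PGR, CDH1) were under the floor in both lines. EPCAM read 513 in S100A7 cells and 544 in vector cells, and ERBB3 57.3 in S100A7 cells and 71.7 in vector cells. Blood cell markers summed to 265 in S100A7 cells and 394 in vector cells, with PTPRC, TYROBP, LYZ and CD3E under the floor in both lines and CD79A above it. Endothelial markers summed to 252 in S100A7 cells and 169 in vector cells, with VWF below the floor on both. PECAM1 read 168 in S100A7 cells and 132 in vector cells, CDH5 read 79.0 in S100A7 cells and 24.8, below the floor, in vector cells, and the part of these markers in the results was not tested.

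By its brightest probe set, no measured member of the family was 2-fold apart between the arrays. Of the 8 measured members, 0 were at least 2-fold higher in S100A7 cells, against 1.8% of all 12688 measured genes, and 0 were at least 2-fold lower, against 2.25%. BCL2L1 (1.58-fold lower), BCL2L11 (1.45-fold lower) and BID (1.34-fold lower) were the lowest by ratio, and PMAIP1 (1.30-fold higher) the highest. BCL2, MCL1, BAX and BAK1 were within 1.2-fold, as were 47.6% of all measured genes. At a threshold of 1.5-fold, 1 member (BCL2L1) was lower, against 10% of all measured genes, and 0 were higher, against 8.12%. In all, 6 members had a log2 ratio below 0 and 2 above it, where 54.2% of all measured genes were below 0. The median log2 ratio of the 8 was -0.13, beside -0.04 for all measured genes. The histogram of all measured genes places the 8 members inside the body of the distribution.

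**Figure D1:**
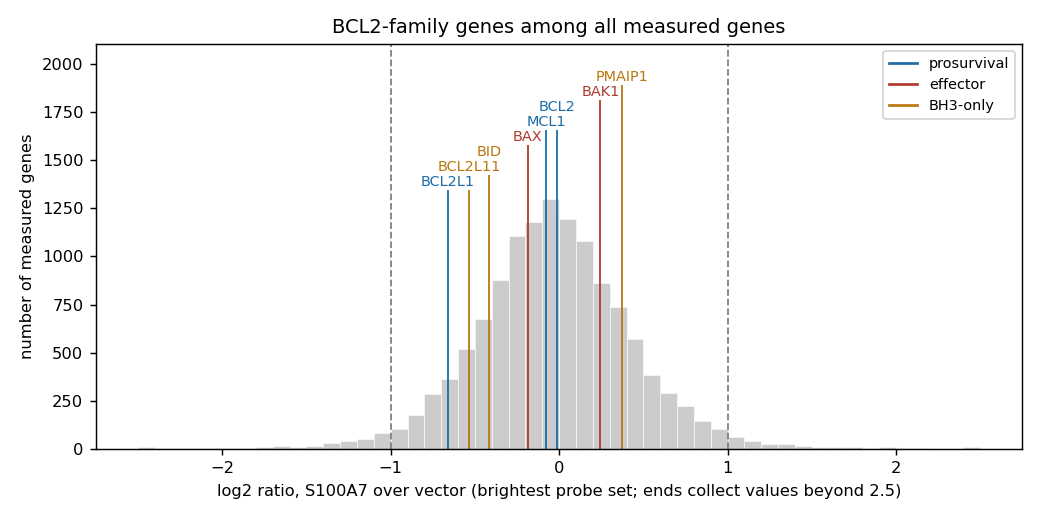
Histogram of the log2 ratio, S100A7 over vector, of the brightest probe set of the 12688 measured genes (x axis log2 ratio, y axis number of genes), with a vertical line at each of the 8 measured members, coloured by role. Dashed lines mark 2-fold. All 8 members lie between -0.66 (BCL2L1) and 0.37 (PMAIP1), inside the 2-fold lines.

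Of the 30 probe sets with 1 member gene, 27 were measured and 3 stayed under the floor in both lines. The log2 ratio was below 0 for 22 of the 27 and above 0 for 5, where 51.5% of all 24438 measured probe sets with 1 gene were below 0. Of the 22, 1 of BCL2L11 was measured only through its vector value and could only fall below 0. Probe sets of 1 gene share their transcripts, and BCL2L11, MCL1 and BCL2L1 supply 17 of the 27, so these are not independent observations. The suffix _s_at or _x_at, which marks probes that can match several transcripts, was carried by 13 of the 27, among them every probe set of PMAIP1 and BAX. A single probe set, 1 of PMAIP1, was at least 2-fold higher (2.2% of all such probe sets), and 0 were at least 2-fold lower (2.13%). Among the 7 members read by 2 or more measured probe sets, all probe sets were below 0 for 4 (BCL2L1, BAX, BID and BCL2L11) and above 0 for 1 (PMAIP1), where 29.2% of such genes had all below 0 and 27.7% all above.

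**Figure D2:**
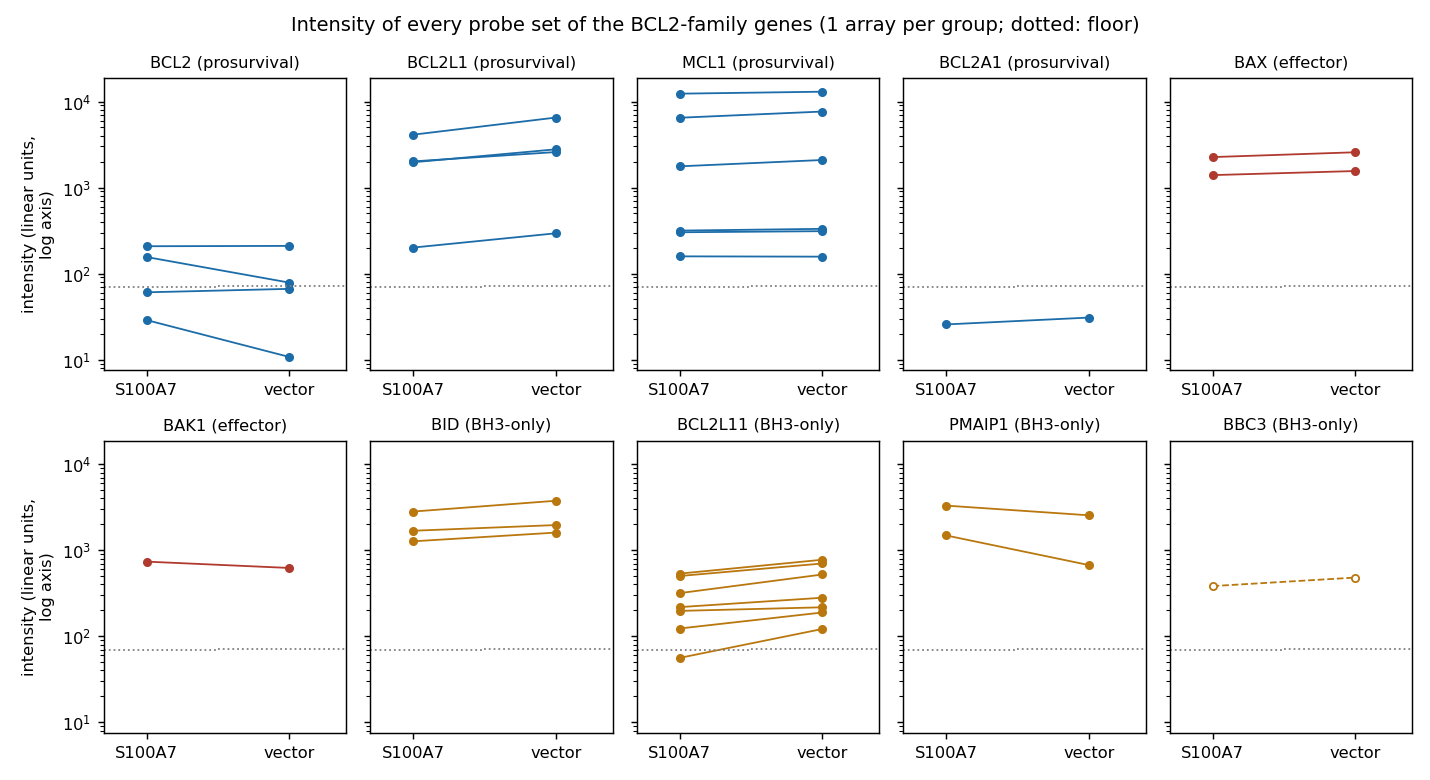
Intensity of every probe set of the 10 genes, 1 panel per gene, in S100A7 cells (left) and vector cells (right), on a log axis; each line joins the values of 1 probe set, and the dotted lines are the floors, 69.0 and 71.0. The dashed line with open circles is the probe set that lists BBC3 with 2 microRNA genes. All 7 lines of BCL2L11 and all 4 of BCL2L1 are lower on the S100A7 side, both lines of PMAIP1 are higher there, and BCL2A1 is below the floor on both sides.

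BCL2L1 encodes BCL-XL, a long-lived prosurvival protein of the outer mitochondrial membrane, and was the measured member with the lowest ratio. Its brightest probe set read 4113 in S100A7 cells and 6506 in vector cells. The other probe sets read 1966, 2013 and 200.4 in S100A7 cells, against 2781, 2584 and 294 in vector cells. All 4 were lower in S100A7 cells, from 1.28-fold to 1.58-fold, with log2 ratios averaging -0.52 ± 0.13 (SD over 4 probe sets, which are not replicates). Among all 1327 genes with at least 4 measured probe sets, 15.5% had every probe set below 0. The log2 ratio of -0.66 stands beside a pooled SD between probe sets of 0.36, which does not hold the spread between cultures, and 7.71% of measured genes had a lower ratio. The gene also makes a short splice form, BCL-XS, that promotes death. The probe set that the platform's annotation ties to that form, the one at 2013 in S100A7 cells, has the suffix _s_at for probes shared by several transcripts, so the forms cannot be told apart here. BCL2L1 lies on chromosome 20, where 377 measured genes had log2 ratios with a median of -0.15, while its 40 nearest measured genes had a median of -0.03.

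The bases before the annotated start of BCL2L1 are shown because this member had the lowest ratio, and they serve as the contrast for the other 2 regions printed further on. They are the 250 bases of chr20:31723964-31724213 on the minus strand (RefSeq, GRCh38.p14), written 5′ to 3′, and RefSeq's table holds a second start for this gene that is not shown. The motifs looked for on both strands were the cAMP response element core TGACGT, the forkhead element GTAAACA and the GC box GGGCGG, found in 7.1%, 2.98% and 42.6% of 35116 RefSeq upstream regions of that length. Matches would be in capitals, and this window holds none of these motifs on either strand.
BCL2L1 upstream region: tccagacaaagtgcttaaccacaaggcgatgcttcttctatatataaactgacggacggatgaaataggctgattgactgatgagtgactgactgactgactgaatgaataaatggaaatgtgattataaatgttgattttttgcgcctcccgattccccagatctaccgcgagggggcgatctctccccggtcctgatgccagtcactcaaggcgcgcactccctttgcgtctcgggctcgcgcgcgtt

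MCL1, a prosurvival protein with a short half-life that many cells need to stay alive, read similar intensities on the arrays. Its brightest probe set read 12329.5 in S100A7 cells and 13002 in vector cells, a log2 ratio of -0.08. The others read 6476, 1764, 316, 302 and 158.5 in S100A7 cells, against 7643, 2089, 331, 311 and 157.2 in vector cells. So 5 of 6 were lower in S100A7 cells, by at most 1.18-fold. The log2 ratios averaged -0.11 ± 0.11 (SD over 6 probe sets). The 40 nearest measured genes on chromosome 1 had a median log2 ratio of 0.26.

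BCL2, the founding prosurvival member, gave readings that differed between its probe sets. The brightest read 207.8 in S100A7 cells and 209.7 in vector cells, a log2 ratio of -0.01. A further probe set, which the platform's annotation ties to the shorter beta transcript, read 155.7 in S100A7 cells and 78.5 in vector cells, 1.98-fold higher, with the vector value close to the floor of 71.0. The other probe set tied to the beta transcript read 28.8 in S100A7 cells and 10.7 in vector cells, and the last read 60.5 in S100A7 cells and 66.4 in vector cells, each under the floor in both lines. The measured pair differed by 1.00 on the log2 scale, and 11.3% of genes with 2 or more measured probe sets had a range that wide. The direction for BCL2 therefore turned with the probe set: the median over its measured probe sets was 0.49, and median centring of the arrays put the brightest at 0.03. The 179 measured genes of chromosome 18, which carries BCL2, had a median log2 ratio of 0.35, and its 40 nearest measured genes had a median of 0.44.

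BCL2A1, a prosurvival gene that is a well-known NF-kB target in blood cells, was read by 1 probe set at 25.6 in S100A7 cells and 30.8 in vector cells. Both values were below the floor, so no ratio was taken at this floor.

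The effector genes were within 1.2-fold. BAX read 2259 in S100A7 cells and 2570.4 in vector cells with its brighter probe set, 1.14-fold lower. The other probe set read 1395 in S100A7 cells and 1555 in vector cells, 1.12-fold lower. Its 40 nearest measured genes on chromosome 19 had a median log2 ratio of -0.38, so BAX at -0.19 was above them, at 0.20 after their median was subtracted. The median over all 909 measured genes of chromosome 19 was -0.19, the same as BAX to this precision. BAK1 read 737 in S100A7 cells and 622 in vector cells with its 1 probe set, 1.18-fold higher (log2 ratio 0.24). Chromosome 6, where BAK1 lies, had a median log2 ratio of 0.24 over 664 measured genes.

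BCL2L11 encodes BIM, a BH3-only protein that binds all prosurvival members and is restrained by growth factor signalling through ERK. All 7 of its probe sets read lower in S100A7 cells. The 3 brightest read 535, 502 and 317 in S100A7 cells, against 775, 701 and 522 in vector cells. The next 3 read 218, 197 and 123 in S100A7 cells, against 280.4, 217 and 189 in vector cells. The dimmest read 56.0 in S100A7 cells, below the floor, and 121 in vector cells, at least 1.76-fold lower. Being measured only through its vector value, that probe set could only read lower. The log2 ratios of the other 6, above the floor on both arrays, averaged -0.48 ± 0.20 (SD over 6 probe sets). Of 159 genes with at least 6 such probe sets, 14.5% had all of them below 0. With its brightest probe set at -0.54, 11.9% of measured genes were lower. Its 40 nearest measured genes on chromosome 2 had a median of -0.27, and the difference from them was -0.27.

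The upstream region of BCL2L11 is shown because every probe set of the gene read lower, and because forkhead (FOXO) factors are known to act on this gene. The 250 bases are chr2:111120664-111120913 on the plus strand (RefSeq, GRCh38.p14), written 5′ to 3′, with motif matches in capitals. They hold 1 forkhead element, which begins 223 bases before the start, and 3 GC boxes. A match is a run of letters and not a shown binding site.
BCL2L11 upstream region: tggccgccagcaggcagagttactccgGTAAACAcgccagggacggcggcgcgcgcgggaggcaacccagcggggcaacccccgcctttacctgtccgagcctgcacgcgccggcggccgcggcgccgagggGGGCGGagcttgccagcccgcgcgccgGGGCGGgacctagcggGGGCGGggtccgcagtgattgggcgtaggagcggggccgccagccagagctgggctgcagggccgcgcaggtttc

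PMAIP1 encodes NOXA, a small BH3-only protein that chiefly binds and destabilises MCL1 and is induced by p53 and by cellular stress. It was the measured member with the highest ratio. Its brighter probe set read 3302 in S100A7 cells and 2547 in vector cells, 1.30-fold higher. The other probe set read 1486 in S100A7 cells and 672 in vector cells, 2.21-fold higher, the 1 probe set of the family beyond 2-fold. Of genes with 2 or more measured probe sets, 5.4% had at least 1 that far above. The log2 ratios were thus 0.37 and 1.14, and 21.2% of genes with 2 or more measured probe sets had probe sets at least this far apart. Of measured genes, 16.6% had a higher ratio than its brighter probe set. Its 40 nearest measured genes on chromosome 18 had a median log2 ratio of 0.42, so after subtracting it the brighter probe set was at -0.05. PMAIP1 and BCL2 share this chromosome, and the part of the chromosome's shift in their values was not tested.

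The upstream region of PMAIP1 is shown as that of the member with the highest ratio. The 250 bases are chr18:59899746-59899995 on the plus strand (RefSeq, GRCh38.p14), written 5′ to 3′. The capitals mark 1 cAMP response element core, found as ACGTCA and beginning 56 bases before the start, and 4 GC boxes. No forkhead element with these letters lies in the window.
PMAIP1 upstream region: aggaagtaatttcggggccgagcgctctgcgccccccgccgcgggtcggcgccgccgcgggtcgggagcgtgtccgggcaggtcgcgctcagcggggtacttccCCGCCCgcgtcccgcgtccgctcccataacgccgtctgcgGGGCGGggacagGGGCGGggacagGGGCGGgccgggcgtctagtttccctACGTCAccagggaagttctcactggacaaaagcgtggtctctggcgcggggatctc

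BID links the death receptors to mitochondria, since caspase-8 cuts its protein into an active fragment. Its brightest probe set read 2815 in S100A7 cells and 3760.4 in vector cells, 1.34-fold lower. The others read 1684 and 1269 in S100A7 cells, against 1961 and 1603 in vector cells, so all 3 were lower, by 1.16-fold to 1.34-fold. The log2 ratios averaged -0.32 ± 0.10 (SD over 3 probe sets), and 27 nearest measured genes on chromosome 22 had a median of -0.21. BBC3 encodes PUMA, a BH3-only protein induced by p53. The probe set that lists it with 2 microRNA genes read 383 in S100A7 cells and 481 in vector cells, a log2 ratio of -0.33.

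**Figure D3:**
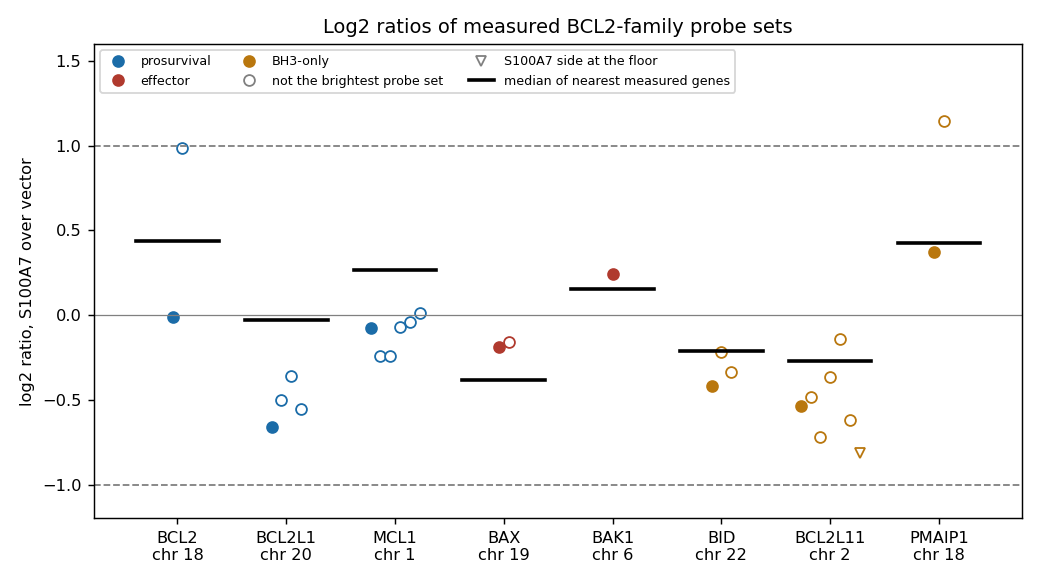
Log2 ratio, S100A7 over vector, of each of the 27 measured probe sets (y axis), by gene (x axis), coloured by role; filled points are the brightest probe set of a gene, the triangle has its S100A7 value at the floor, and dashed lines mark 2-fold. Black bars give, for the closest measured genes on the same chromosome, their median, which is 0.42 for PMAIP1 and -0.03 for BCL2L1.

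By role, the measured prosurvival genes had a median log2 ratio of -0.08 (3 genes), the effectors 0.03 (2 genes) and the BH3-only genes -0.42 (3 genes). With this few genes per role, each median rests on 1 or 2 genes, and the BH3-only genes alone ranged from -0.54 to 0.37. In this setting the lowest member, BCL2L1, blocks death, and the next lowest, BCL2L11 and BID, promote it. The order of the roles depended on the setting. With the neighbours' median subtracted from each gene, the medians were -0.45 for the prosurvival genes, -0.21 for the BH3-only genes and 0.15 for the effectors. In that setting the brightest probe sets fell in order of role. BCL2L1 (-0.63), BCL2 (-0.45) and MCL1 (-0.34) were below BCL2L11 (-0.27), BID (-0.21) and PMAIP1 (-0.05), and BAK1 (0.09) and BAX (0.20) above them. This order rests on a single probe set per gene. Before subtraction, the other measured probe sets of BCL2 (0.99) and PMAIP1 (1.14) lay above their neighbours' medians (0.44 and 0.42). With those probe sets the order would not hold. The array reads RNA, whereas several of these proteins, MCL1 and NOXA among them, are known to be set largely by protein turnover, which was not measured.

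Other genes related to BCL2 had a median of -0.07 over 15 measured genes of 18 listed, with 0 of them higher and 1 lower by 2-fold or more. The 1 was BMF, a BH3-only gene whose protein binds the cytoskeleton's motor complexes in healthy cells. Its probe set read 68.9 in S100A7 cells, just below the floor, and 173.9 in vector cells, at least 2.52-fold lower. Being measured only through its vector value, that probe set could only read lower. The chromosomal neighbours of BMF had a median of -0.40. After subtracting that median BMF was under 2-fold. BCL2L2, the prosurvival BCL-W, was the next lowest at -0.52 (324 in S100A7 cells, 465 in vector cells), with its second probe set at -0.45. The highest were BECN1, the autophagy protein beclin 1 that BCL2 binds (0.66), and the BH3-only gene BIK (0.39). The counts at 2-fold in this and the following lists stand beside the same 1.8% higher and 2.25% lower over all measured genes.

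Downstream of the family, 11 apoptosome and caspase genes had a median of -0.01 with 0 outside 2-fold. CASP2 was the lowest at -0.67, with its 7 probe sets between -1.87 and -0.49, and CYCS, cytochrome c, followed at -0.13. The highest were the mitochondrial protease HTRA2 (0.39, its other probe set at -0.09) and the initiator caspase gene CASP9 (0.30). Inhibitors of apoptosis and other death inhibitors had a median of 0.15 over 15 genes, 12 of them above 0, where 45.8% of all measured genes were, and 0 outside 2-fold. They ran from AVEN (-0.86) and BAG1 (-0.48) to TMBIM4 (0.44) and CFLAR, the caspase-8 inhibitor FLIP (0.57). Probe sets disagreed in direction for BAG1 (3, up to 0.45), TMBIM4 (4, down to -0.46) and CFLAR (11, from -0.50 to 0.70). CFLAR and XIAP of this list are also among the NF-kB survival targets below. Mitochondrial membrane partners had a median of 0.09 over 12 genes with 0 outside 2-fold, from BCAP31 (-0.25) and MFN1 (-0.02) to the calcium channel genes ITPR2 (0.58) and ITPR3 (0.74).

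Among genes that act on the family from upstream, those for the turnover of its proteins had a median of -0.09 over 13 genes. They ran from the phosphatase DUSP6 (-0.36) and the ubiquitin ligase FBXW7 (-0.32) to BTRC (0.34) and the kinase MAPK8 (0.51). The 3 probe sets of BTRC spanned -0.45 to 0.34. Transcription factors of BH3-only genes had a median of -0.08 over 8 genes, from MYC (-0.44) and CEBPB (-0.35) to TP73 (0.49) and FOXO3 (0.59). FOXO3, a forkhead factor known to act on BCL2L11, read 5188 in S100A7 cells and 3447 in vector cells. The neighbours of FOXO3 on chromosome 6 had a median of 0.50. Any link between FOXO3 and the BCL2L11 values was not tested. The p53 death and arrest targets had a median of 0.04 over 15 genes, from AEN (-0.57) and TNFRSF10C (-0.17) to SESN1 (0.73) and GADD45A (0.97), with 0 outside 2-fold in each of these 3 lists. GADD45A passed 2-fold with median centring (1.02) and after subtracting neighbours (1.05). NF-kB survival targets had a median of 0.61 over 8 genes (0.32 with a floor at the 70th percentile, 0.47 after subtracting neighbours), with 1 at least 2-fold higher, IER3 (1.05), whose neighbours had a median of 0.23 and which was under 2-fold after subtracting it. TNFAIP3 followed at 0.99 (1.03 with median centring, past 2-fold), with its other probe set at 0.46 and its neighbours at a median of 0.41. GADD45B (-0.02) and TRAF1 (-0.06) were the lowest. Probe sets disagreed in direction for GADD45B (4, from -0.39 to 1.09) and TRAF1 (2, up to 0.28). The family itself also holds NF-kB targets, among them BCL2L1 (1.58-fold lower) and BCL2A1 (below the floor), which are not a complete list. A part of NF-kB in these values was not tested.

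**Figure D4:**
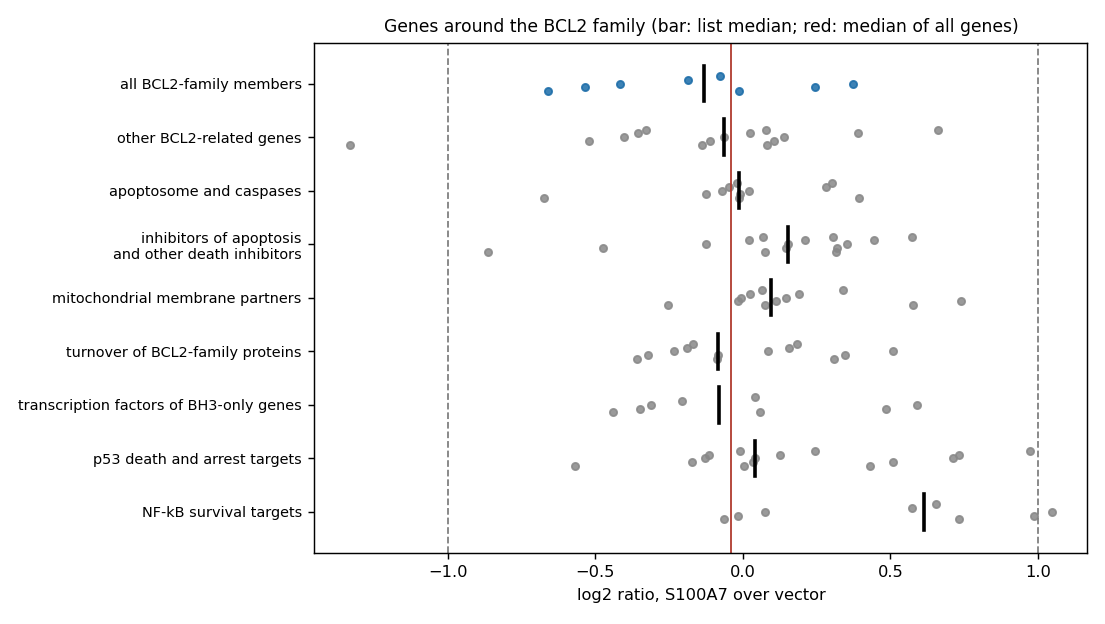
Log2 ratio, S100A7 over vector (x axis), of each measured gene in the BCL2 family (top row) and in 8 lists of genes around it, with the list medians as black bars, the median of all measured genes (-0.04) as a red line and 2-fold as dashed lines. Points beyond 2-fold are BMF at the left, measured only through its vector value, and IER3 at the right. The family's median is -0.13 and that of the NF-kB survival targets 0.61.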

How the data were processed

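Total RNA from 2 cultures was measured on 1 array each. The deposited intensities, 1 per probe set on a linear scale, were made with MAS5 per the submitters' processing notes; its version, scaling target and detection calls: not given in the sources used here. Means after trimming 2% at each end were 500.07 on both arrays, so the values were used as deposited. The S100A7 sample's label includes a phrase on embryos, which was ignored. The platform's annotation listed 1 gene for 41091 probe sets, several for 1801 and none for 11721; 62 were controls. Symbols were updated by Entrez identifier for 41037 of the 41091. Genes whose listed probe sets all name several genes were not analysed here, apart from BBC3.

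Members and lists were chosen with earlier results of these data known. Genes were named by rule: all members, and from each other list those at least 2-fold apart plus the 2 highest and 2 lowest by log2 ratio. VIM, CD44 and the other markers served as checks. Log2 ratios, counts at 2-fold and list medians were computed in Python 3.11.15 with pandas 2.3.3 and tested on simulated arrays. With 1 array per group no test was possible, and the number of arrays limits the precision. The alternatives were a lower (30th percentile) or higher floor (70th), none at all, a pseudocount of 32 instead, median centring, quantile normalization, the median over probe sets, no suffixes _x_at and _s_at, subtraction of 40 chromosomal neighbours (20 on each side, fewer near chromosome ends), and thresholds of 1.5-fold and 3-fold. The backgrounds for probe sets agreeing in direction were added after the data had been seen.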

Additional observations from a re-analysis of the deposited data

How the results depend on the processing

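The count of members at least 2-fold higher was 0 in every alternative run, and that of members at least 2-fold lower was 0 in all except the threshold of 1.5-fold, where it was 1 (BCL2L1). The median log2 ratio of the members stayed between -0.24 (after subtracting chromosomal neighbours) and -0.09 (median centring). It was -0.19 when the shared probe set was taken as BBC3, an alternative chosen after seeing the data. The measured members numbered 9 with the 30th-percentile floor, where BCL2A1 entered, 7 with the 70th and 6 without the suffixes. BCL2L1 stayed between -0.67 and -0.53, BCL2L11 between -0.54 and -0.27, BID between -0.42 and -0.21, MCL1 between -0.34 and -0.03, and BAK1 between 0.09 and 0.29. Signs turned for BCL2, at 0.49 as a median over probe sets, for BAX, at 0.20 after subtracting neighbours, and for PMAIP1, at -0.05 after subtracting neighbours; its median over probe sets was 0.76. For BCL2 median centring also gave 0.03. BCL2 gave no value with the 70th-percentile floor, nor did BAX and PMAIP1 without the suffixes _x_at and _s_at.

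Counts over all measured genes depended on the floor by construction: at the 30th percentile 679 genes were at least 2-fold higher and 979 lower, at the 70th 99 and 88, and without a floor 493 and 660. They were 1030 and 1275 at 1.5-fold and 47 and 55 at 3-fold. BMF and IER3 no longer passed 2-fold after subtracting neighbours, leaving 0 in their lists, while GADD45A reached 1.05 on the log2 scale. BMF also did not pass with the 70th-percentile floor, which left 0 genes lower in its list. With a lower floor, none or a pseudocount, BCL2L10 also passed 2-fold lower and BCL2L15 2-fold higher. BCL2L10 read 17.9 in S100A7 cells and 74.5 in vector cells, and BCL2L15 78.2 in S100A7 cells and 12.6 in vector cells. Each was measured only through its higher value, close to the floor, so its direction was fixed by that. GADD45B passed without suffixes (1.09) by its dimmest probe set, which read 184 in S100A7 cells and 86.6 in vector cells. Its brighter probe sets were at -0.02, -0.39 and -0.32. GADD45A and TNFAIP3 passed with median centring. By role, the prosurvival median was -0.37 with the 70th-percentile floor, where BCL2 gave no value, and -0.45 after subtracting neighbours. The BH3-only median was -0.21 after subtracting neighbours. Of 10 alternatives, list medians changed sign in 3 for the turnover genes (up to 0.10), 2 for apoptosome and caspase genes (up to 0.05), 1 for the other genes related to BCL2 (0.02) and 1 for the death inhibitors (-0.05), and in 0 for the other 4 lists. The cause of these changes in sign was not tested. No paired analysis was possible because each group has 1 array.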
